A study of Mus musculus with 11 samples.

Results

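Transcript levels of 6 genes that shape or mark the map of olfactory sensory neurons (OSNs) were examined in the main olfactory epithelium (MOE) of mice with and without the olfactory Taar gene cluster. The genes were taken by symbol from the deposited table of raw read counts, in which they made up 6 of 24421 entries, and they fell into 2 groups of 3. Kirrel2, Kirrel3 and Pcdh10 encode adhesion molecules by which OSN axons sort according to neuronal activity, and Nqo1, Acsm4 and Ncam2 mark the dorsal (Nqo1, Acsm4) or the ventral (Ncam2) zone of the epithelium. The 11 polyA-selected, directional libraries came from whole MOE of wild type mice (n = 3), of heterozygous mice that lacked the Taar2 to Taar9 cluster on 1 chromosome (n = 4) and of homozygous mice that lacked it on both (n = 4). Per the labels all were P1-P2 pups of strain C57BL/6 and received no treatment that is named there, whereas the methods of the study give an older age and a background mixed with 129 for this line, which was not settled here. The deletion was carried in the germline, so it was not restricted to OSNs. Sex, litter and library date of single animals were not in the labels, and p-values measure the spread between these samples.

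Most OSNs express 1 receptor gene, from the odorant receptor family or from the smaller Taar family. Each OSN sends 1 axon to the olfactory bulb. The position of the cell body along the dorsal to ventral axis of the epithelium is linked to the position of its target in the bulb, and enzymes such as Nqo1 and Acsm4 and the adhesion molecule Ncam2 have long served as zone markers. Along the other axes axons are sorted locally into glomeruli. There, the cyclic nucleotide-gated channel that carries the odour response sets the levels of Kirrel2 and Kirrel3, homophilic immunoglobulin-type molecules that neurons express in a complementary manner, and Pcdh10, a nonclustered protocadherin, is likewise regulated by activity. Most Taar genes are expressed mainly in the dorsal zone, whereas the paper places Taar6, Taar7a and Taar7b more ventrally. The axons of Taar OSNs end in a dorsal cluster of glomeruli. The comparisons therefore asked whether the loss of Taar receptors was accompanied by a change in sorting molecules or in the balance of dorsal and ventral markers of the whole tissue. The paper describes Taar OSNs as a very small share of whole MOE. A change confined to those neurons could be too diluted to see in whole tissue. Levels that overlap between genotypes therefore do not show that these neurons were unchanged.

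Summed counts of the 14 olfactory Taar genes set the homozygous libraries apart, with 87 to 119 counts in each wild type library, 31 to 96 in each heterozygous one and 1 to 3 in each homozygous one. The wild type and heterozygous ranges overlapped, so the sum does not tell these 2 labels apart. Total counts were 9239866 to 14632525 per library. In homozygous replicate 2, 25.8% of counts belonged to the ribosomal RNA entry Rn45s, against 0.79% or less in the other libraries. On the first principal component, with 41.6% of the variance, the libraries fell into 2 sets that each held all 3 genotypes. Set 1 held 6 libraries, those numbered 1 and 2 of the wild type and homozygous groups and those numbered 3 and 4 of the heterozygous group. Set 2 held the other 5, with wild type replicate 3 as its single wild type library. The mature OSN markers were abundant in every library (summed 1280 to 2310 CPM, the count scaled to a common library total), all 9 of them being detected. Genes of skeletal muscle, another tissue of the nose and jaw, were also present, and their 7 markers summed to 5.74, 55.6 and 15.5 CPM in wild type, 15.6, 545, 14.9 and 1614 CPM in heterozygous and 114, 403, 764 and 19.0 CPM in homozygous replicates. The part of these features in the results below was not tested, and mean levels within the sets are given for each gene, where wild type in set 2 is always replicate 3 alone. In whole tissue, fewer cells of a type and less RNA per cell cannot be told apart.

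All 6 genes were well measured, with 125 to 1826 counts per library, and all passed the filter on low counts that left 16574 genes for testing. Levels are CPM after TMM scaling, which adjusts library totals for differences in composition. Per kilobase of annotated exon, mean wild type levels followed the order Acsm4 (60.4 CPM per kb), Nqo1 (49.6), Kirrel2 (33.1), Ncam2 (4.63), Kirrel3 (3.84) and Pcdh10 (1.19). Neighbours in this order did not all separate. The ranges of Acsm4 (46.1 to 78.6) and Nqo1 (36.4 to 66.0) overlapped in wild type, as did those of Nqo1 and Kirrel2 (29.8 to 36.6), whereas the lowest Ncam2 level (4.34) was just above the highest Kirrel3 level (4.26). The order was the same in heterozygous and homozygous libraries, where the ranges of Ncam2 and Kirrel3 did overlap. The values depend on the length used. Per kilobase of the longest coding transcript, wild type means were 6.61 for Ncam2, 5.30 for Kirrel3 and 2.30 for Pcdh10, in the same order.

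**Figure D1:**
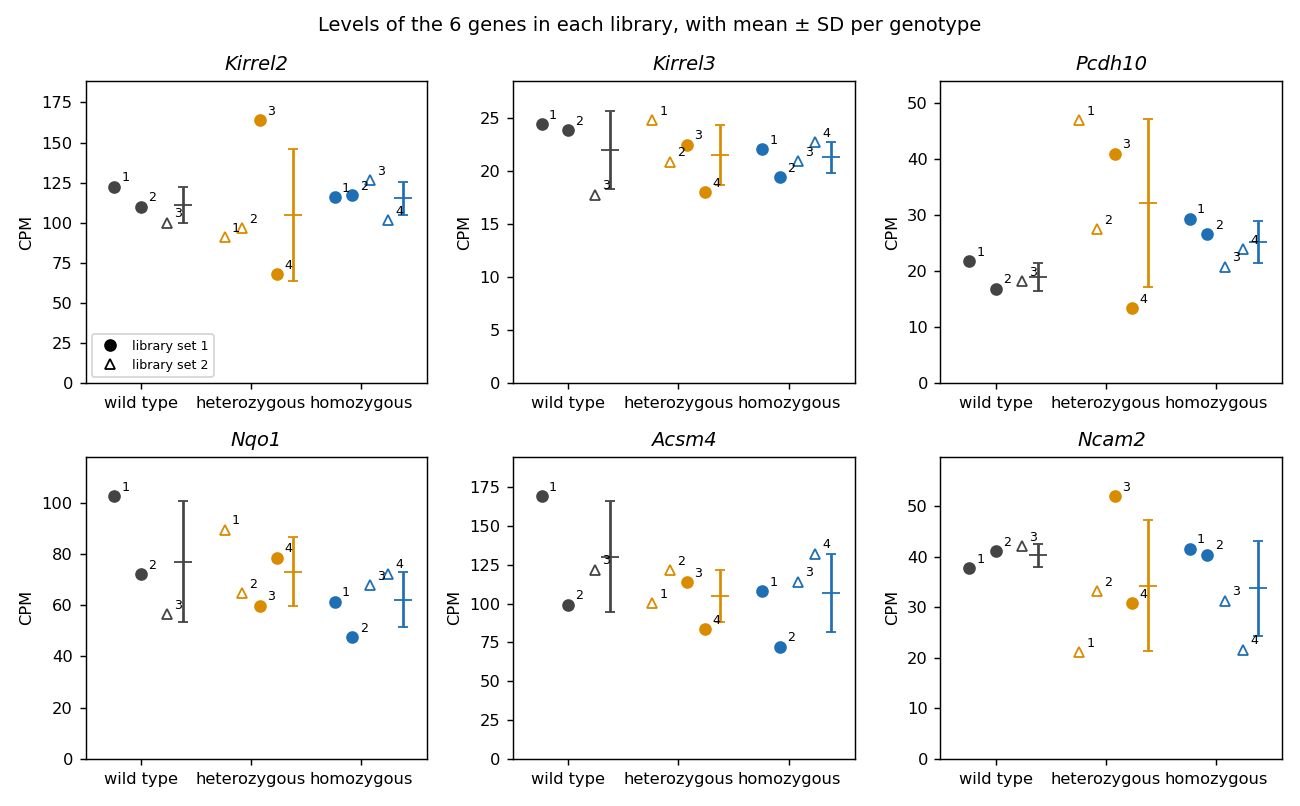
Level of each gene in CPM (vertical axis, starting at 0) in every library, by genotype, with the replicate number beside each point, filled circles for library set 1, open triangles for set 2, and bars for mean ± SD. All 3 genotypes overlap in every panel, and the heterozygous libraries are the most widely spread for Kirrel2, Pcdh10 and Ncam2.

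None of the 6 genes differed between genotypes past an adjusted p of 0.05 in edgeR's quasi-likelihood test, in any of the 3 comparisons, and neither did any of them in DESeq2. Over all genes edgeR called 0% in each comparison and DESeq2 called 8, 3 and 2 genes. With the replicate number as a block and only the 2 genotypes of a comparison, an alternative chosen after seeing the data, edgeR called 39, 8 and 0 genes, none of them among the 6. At an unadjusted p under 0.05 edgeR named 0 of 6 for homozygous against wild type (3.02% of all genes), 1 of 6 for heterozygous against wild type (2.24% of all genes) and 0 of 6 for homozygous against heterozygous (0.561% of all genes). DESeq2 gave the same 3 counts for the 6 genes. The single gene was Pcdh10. The groups overlapped for 6 of 6 genes in all comparisons, against 4.99%, 2.51% and 0.597% of all genes with groups that did not overlap, in the same order. The comparisons of each mutant genotype with wild type share the 3 wild type libraries.

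**Figure D2:**
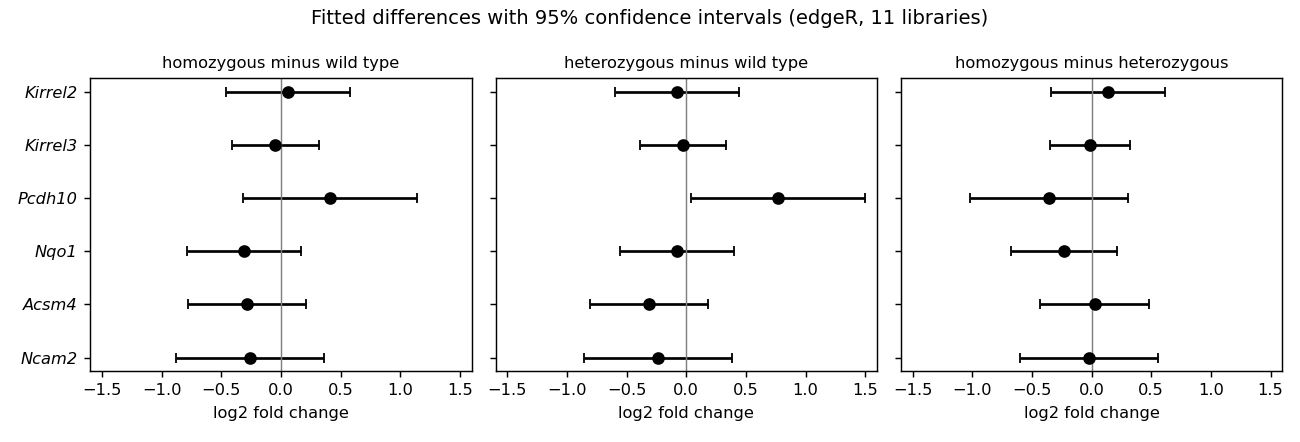
Fitted log2 fold change (horizontal axis) of each gene with its 95% confidence interval, for the 3 comparisons. Of the 18 intervals, that of Pcdh10 for heterozygous against wild type, 0.037 to 1.499, is the one that leaves out 0.

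Among the sorting molecules, Pcdh10 (chromosome 3, 45378398 to 45435623, plus strand, mm10) had the widest range. Its level was 21.8, 16.8 and 18.2 CPM in the wild type libraries, 46.8, 27.5, 40.9 and 13.4 CPM in the heterozygous and 29.4, 26.6, 20.8 and 23.9 CPM in the homozygous libraries, here and below in the order of their replicate numbers. Thus 3 of 4 heterozygous libraries stood above all wild type libraries, and heterozygous replicate 4 stood below every other library of the study. Homozygous libraries lay closely together, 3 of 4 above all wild type libraries. The highest and lowest heterozygous level differed 3.50-fold, against 1.29-fold in wild type and 1.41-fold in homozygous libraries.

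The fitted heterozygous level of Pcdh10 was 1.70-fold that of wild type (log2 fold change 0.77, SE 0.34, 95% confidence interval 0.037 to 1.499). Its p was 0.0410 before and 0.99997 after adjustment over all genes (edgeR). An exact permutation test of log2 CPM, which can give no p below 0.0571 for 3 against 4 libraries, gave p = 0.286. For homozygous against wild type the log2 fold change was 0.41 (SE 0.33, interval -0.32 to 1.14, edgeR's adjusted p = 0.996), and between homozygous and heterozygous it was -0.36 (SE 0.30, interval -1.02 to 0.31, adjusted p = 0.999996). With that block and only wild type and homozygous libraries fitted, the homozygous value was 0.41 with an unadjusted p of 0.0315 and an adjusted p of 0.740 (edgeR), in a fit in which 1020 of 16163 genes had an unadjusted p under 0.05. Fitted with the block over the libraries of all genotypes it was 0.62 (unadjusted p = 0.0804). For heterozygous against wild type the same block fits gave 0.99 (unadjusted p = 0.00454, adjusted 0.999) and 0.85 (unadjusted p = 0.0206) in edgeR. Without the block, edgeR's fit of only wild type and heterozygous libraries gave 0.76 (unadjusted p = 0.0673).

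The heterozygous value depended on single libraries. Without heterozygous replicate 4 the log2 fold change over wild type was 1.02 (SE 0.21), with an unadjusted p of 5.72e-04 and an adjusted p of 0.998 (edgeR), and homozygous libraries then lay lower than heterozygous by 0.63 (log2 fold change -0.63, unadjusted p = 0.00789). Without heterozygous replicate 1, the library with the highest level, the value over wild type was 0.53 (unadjusted p = 0.133). Heterozygous replicate 4 also held the most skeletal muscle RNA (1614 CPM) and the lowest total count of the series, and it had the lowest level of Kirrel2. The next highest muscle signal, 764 CPM in homozygous replicate 3, went with the lowest Pcdh10 level among homozygous libraries (20.8 CPM), whereas heterozygous replicate 2 had 545 CPM of muscle RNA and a Pcdh10 level above all wild type libraries. A part of muscle RNA in the difference was not tested. Mean Pcdh10 levels in wild type, heterozygous and homozygous libraries were 19.3, 27.2 and 28.0 CPM within set 1 and 18.2, 37.1 and 22.3 CPM within set 2, both mutant means lying above wild type in either set.

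**Figure D3:**
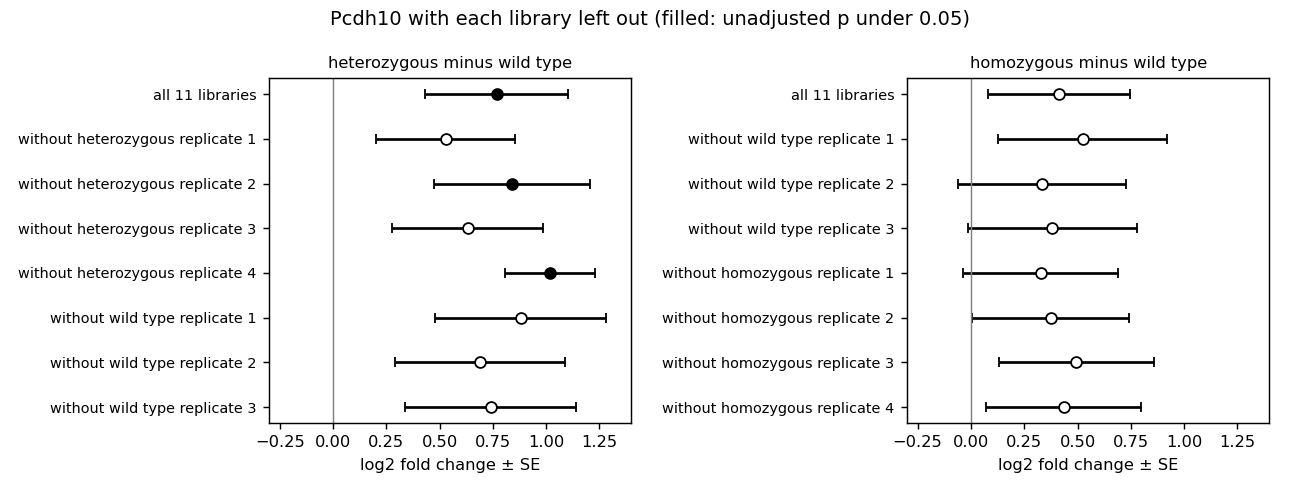
Log2 fold change of Pcdh10 ± SE (horizontal axis) over wild type with all libraries and with each library of the comparison left out, filled where the unadjusted p was under 0.05. The heterozygous value runs from 0.53 to 1.02 and the homozygous value from 0.33 to 0.52, with filled points in 3 of 8 heterozygous fits and in 0 of 8 homozygous fits.

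Pcdh10 overlaps an antisense gene, 1700027H10Rik, by 154 exon bases, and whether reads were counted by strand was not stated. That gene had 0 or 1 count in every library. Because Pcdh10 is the gene on which the heterozygous comparison turned, and because CREB is a transcription factor known to respond to neuronal activity, the 250 bases before its annotated start are shown with matches to the short CREB site TGACG and to the AHR core GCGTG, in capitals (RefSeq, GRCm38.p6, chr3:45378148-45378397, plus strand, 5′ to 3′). For comparison the same window of Acsm4 is given (chr7:119689776-119690025, plus strand), in which capitals mark 2 overlapping matches, on opposite strands, to TCCCNNGGG, a form of the site bound by the OSN factors of the Olf/EBF family.
Pcdh10: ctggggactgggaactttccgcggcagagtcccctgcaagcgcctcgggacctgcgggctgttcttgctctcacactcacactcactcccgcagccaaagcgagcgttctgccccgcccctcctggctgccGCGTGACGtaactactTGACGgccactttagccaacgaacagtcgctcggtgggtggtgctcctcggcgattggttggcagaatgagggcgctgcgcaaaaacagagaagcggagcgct
Acsm4: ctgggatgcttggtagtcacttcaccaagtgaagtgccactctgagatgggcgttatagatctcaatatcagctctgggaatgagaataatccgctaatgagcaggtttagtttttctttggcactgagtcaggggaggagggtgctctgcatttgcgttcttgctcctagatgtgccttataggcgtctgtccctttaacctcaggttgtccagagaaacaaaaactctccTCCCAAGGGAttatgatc

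In the Pcdh10 window the TGACG matches began 116 and 103 bases before the start, the first of them overlapping the GCGTG match, which began 119 bases before the start. TGACG occurred on either strand in 17.8% and GCGTG in 28.2% of 32851 annotated promoter windows of the same length, so both are common. The full palindrome TGACGTCA, found in 1.55% of windows, was not in this one. The Acsm4 matches lay 18 and 17 bases before the start, and 5.6% of windows held at least 1. Windows of Kirrel2, Nqo1 and Ncam2 were searched as well, for these motifs and for TAATTA (LHX2, 4.84% of windows) and TGACNNNGC (NRF2, 10.2%), on both strands. They held 1 match in all, a GCGTG in Ncam2, and Kirrel3 was not among the sequences used. The windows differed widely in base composition, from 47.2% G and C in Acsm4 to 63.2% in Pcdh10 and 75.2% in Ncam2, with a median of 52.4% over all windows. Such matches describe the letters and do not show binding.

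Kirrel2 (chromosome 7, 30447534 to 30457690, minus strand) had the highest level of the sorting molecules, with 123, 110.0 and 100.02 CPM in wild type, 91.1, 96.6, 164 and 68.0 CPM in heterozygous and 116, 117, 126 and 102 CPM in homozygous replicates. Heterozygous replicates 3 and 4 were the highest and the lowest of all 11 libraries, and wild type and homozygous libraries lay between them. The heterozygous coefficient of variation was 39.3%, against 10.2% in wild type and 8.84% in homozygous libraries. The log2 fold change was 0.057 for homozygous against wild type (SE 0.24, 95% interval -0.46 to 0.58), -0.080 for heterozygous against wild type (SE 0.24, interval -0.60 to 0.44) and 0.14 for homozygous against heterozygous (SE 0.22, interval -0.35 to 0.62). Without heterozygous replicate 3 the heterozygous level was lower than wild type (log2 fold change -0.38) and the homozygous level higher than heterozygous (0.44), with unadjusted p of 0.0400 and 0.0161 and adjusted p of 0.9997 or more (edgeR). Without heterozygous replicate 4, the library with the most muscle RNA, both values had the opposite sign, 0.082 over wild type and -0.048 for homozygous over heterozygous libraries. Wild type, heterozygous and homozygous means were 116, 116 and 117 CPM within set 1 and 100.02, 93.9 and 114 CPM within set 2.

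Kirrel3 (chromosome 9, 34485894 to 35036716, plus strand) varied least. Its level was 24.4, 23.8 and 17.8 CPM in wild type, 24.7, 20.9, 22.5 and 17.98 CPM in heterozygous and 22.04, 19.4, 20.9 and 22.7 CPM in homozygous replicates. Over all libraries its coefficient of variation was 11.2%, against 21.97% for Kirrel2 and 38.9% for Pcdh10, and counting error at its lowest count was 7.72%. The log2 fold changes were -0.047 (interval -0.41 to 0.32), -0.029 (interval -0.39 to 0.33) and -0.017 (interval -0.35 to 0.32) for homozygous over wild type, heterozygous over wild type and homozygous over heterozygous libraries. These were the narrowest intervals of the 6 genes, and that of homozygous libraries reached 1.24-fold over wild type. The sets differed in direction, with wild type, heterozygous and homozygous means of 24.1, 20.2 and 20.7 CPM within set 1 and of 17.8, 22.8 and 21.8 CPM within set 2. With 1 library left out the fold changes took either sign, the homozygous value over wild type being -0.18 without wild type replicate 3 and 0.034 without replicate 1 of that group, and the heterozygous one -0.16 and 0.051.

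Since single OSNs express Kirrel2 and Kirrel3 in a complementary manner, their ratio was taken within each library, where the total count cancels. Kirrel2 counts were 5.02, 4.61 and 5.62 times Kirrel3 counts in wild type, 3.68, 4.62, 7.28 and 3.77 times in heterozygous and 5.24, 6.03, 6.04 and 4.47 times in homozygous replicates. The heterozygous libraries spanned the range of the other groups on both sides. The log2 ratio differed by 0.093 between homozygous and wild type, -0.13 between heterozygous and wild type and 0.22 between homozygous and heterozygous, and the exact permutation test gave p = 0.514, 0.686 and 0.429. The 3 differences within set 1, 0.22, 0.12 and 0.10, stood against -0.11, -0.45 and 0.33 in set 2, so the sign of both comparisons with wild type changed with the set. In the 3 pairs with the same replicate number the homozygous ratio was the higher one each time, by a mean log2 difference of 0.18 (exact sign-flip p = 0.25, the smallest that 3 pairs allow), which is also the difference without homozygous replicate 4. With 1 library left out the difference from wild type ran from 0.025 (without wild type replicate 2) to 0.18 for homozygous libraries. For heterozygous libraries it ran from -0.34 (without heterozygous replicate 3) to -0.012 (without heterozygous replicate 1). Across the whole tissue the levels of both genes did not run opposite to each other: Pearson's r was 0.386 over 11 libraries (permutation p = 0.247) and Spearman's rho 0.191 (permutation p = 0.577), and r was -0.031 without heterozygous replicates 3 and 4.

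**Figure D4:**
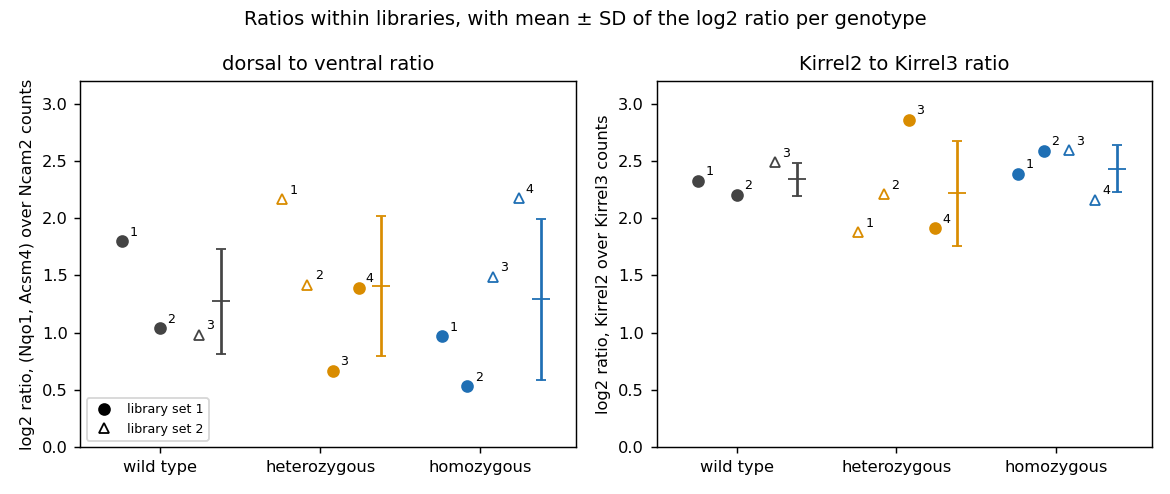
Log2 ratio of dorsal markers to Ncam2 (left) and of Kirrel2 to Kirrel3 (right) in every library by genotype, with replicate numbers, filled circles for set 1, open triangles for set 2, and mean ± SD. On the left the 3 means lie between 1.27 and 1.41 while single libraries run from 0.53 to 2.17, and on the right heterozygous replicate 3 is the highest point.

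The zonal markers had lower point estimates in both mutant genotypes than in wild type with all libraries fitted, and none passed the test. Nqo1 (chromosome 8, 107388225 to 107403206, minus strand), a quinone reductase of the dorsal zone, was at 103, 72.1 and 56.5 CPM in wild type, 89.4, 64.8, 59.8 and 78.6 CPM in heterozygous and 61.4, 47.4, 67.7 and 72.3 CPM in homozygous replicates. Wild type replicate 1 was the highest library and homozygous replicate 2 the lowest. The log2 fold change was -0.31 for homozygous against wild type (SE 0.22, 95% interval -0.78 to 0.17), -0.074 for heterozygous against wild type and -0.23 for homozygous against heterozygous. The first of these ran from -0.49 without wild type replicate 3 (unadjusted p = 0.0471 in edgeR) to -0.047 without wild type replicate 1. The heterozygous value changed sign, to 0.19 without wild type replicate 1 and to 0.011 without heterozygous replicate 3. Mutant means lay below wild type within set 1 (wild type 87.3, heterozygous 69.2 and homozygous 54.4 CPM) and above it within set 2 (56.5, 77.1 and 69.9997 CPM).

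Acsm4 (chromosome 7, 119690026 to 119714565, plus strand), a medium-chain acyl-CoA synthetase of the dorsal zone, was at 169, 99.2 and 122 CPM in wild type, 100.2, 122, 114 and 83.5 CPM in heterozygous and 108, 72.3, 114 and 132 CPM in homozygous replicates. As for Nqo1, wild type replicate 1 was the highest and homozygous replicate 2 the lowest library. The log2 fold change was -0.29 for homozygous (SE 0.23, interval -0.78 to 0.21) and -0.31 for heterozygous (SE 0.23, interval -0.80 to 0.18) against wild type and 0.025 between the mutant genotypes. Without wild type replicate 1 the first 2 values were -0.051 and -0.076. With the replicate block and only wild type and homozygous libraries the homozygous value was -0.42, with an unadjusted p of 0.0110 and an adjusted p of 0.563 (edgeR). With the block over all 11 libraries it was -0.29 (unadjusted p = 0.299). Homozygous replicate 2 is the library with 25.8% ribosomal RNA, and without it the homozygous log2 fold change over wild type was -0.15 for Acsm4 and -0.21 for Nqo1. Within set 1 the Acsm4 means were 134 CPM in wild type, 98.7 CPM in heterozygous and 90.2 CPM in homozygous libraries, and within set 2 they were 122, 111 and 123 CPM, so the homozygous mean lay below wild type in set 1 and not in set 2.

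Ncam2 (chromosome 16, 81200697 to 81626828, plus strand), a cell adhesion molecule of ventral OSNs, was at 37.8, 41.1 and 42.1 CPM in wild type, 21.1, 33.2, 52.0 and 30.8 CPM in heterozygous and 41.6, 40.5, 31.3 and 21.6 CPM in homozygous replicates. Wild type was tight (coefficient of variation 5.55%), while heterozygous replicate 1 and homozygous replicate 4 had about the same low level and heterozygous replicate 3 the highest. Both low libraries belonged to set 2 and had the highest scores of all libraries on the first principal component (42.8 and 59.5). Mean Ncam2 was 40.6 CPM in the 6 libraries of set 1 and 29.8 CPM in the 5 of set 2. The log2 fold change was -0.26 for homozygous (SE 0.28, interval -0.88 to 0.36) and -0.24 for heterozygous (SE 0.28, interval -0.86 to 0.38) against wild type, and -0.021 between the mutant genotypes. With 1 library left out the homozygous value ran from -0.38 (without homozygous replicate 1) to -0.094 (without homozygous replicate 4), and the heterozygous value from -0.51 (without heterozygous replicate 3) to -0.061 (without heterozygous replicate 1). Within set 1 the mutant means were not below wild type, with 41.1 CPM in homozygous and 41.4 CPM in heterozygous libraries against 39.5 CPM. In set 2 they were 26.5 and 27.1 CPM, against 42.1 CPM in wild type replicate 3.

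The dorsal to ventral ratio, the geometric mean of the Nqo1 and Acsm4 counts over the Ncam2 count, was 3.48, 2.05 and 1.97 in wild type, 4.49, 2.67, 1.59 and 2.62 in heterozygous and 1.95, 1.45, 2.80 and 4.52 in homozygous replicates. Each genotype held both low and high libraries, and the wild type range lay within that of either mutant genotype. Geometric means were 2.42, 2.66 and 2.45. The log2 ratio differed by 0.018 between homozygous and wild type, 0.14 between heterozygous and wild type and -0.12 between homozygous and heterozygous, against pooled SDs of 0.62, 0.56 and 0.66, and the exact permutation test gave p = 0.971, 0.743 and 0.800. With Nqo1 or Acsm4 alone over Ncam2 the differences from wild type were 0.019 and 0.017 for homozygous and 0.26 and 0.017 for heterozygous libraries.

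The ratio also moved with the library set, with a geometric mean of 2.09 in set 1 and 3.13 in set 2. Within set 1 both mutant genotypes lay below wild type, by log2 differences of -0.67 for homozygous and -0.39 for heterozygous libraries, and within set 2 both lay above it, by 0.85 and 0.81, where wild type was replicate 3 alone. The differences within the sets were not tested, since no set held more than 2 libraries of a genotype. With values centred on the set the homozygous difference was -0.059 (exact permutation p = 0.800), and as the mean of the 3 pairs with the same replicate number it was -0.28 (exact sign-flip p = 0.75, with 0.25 the smallest that 3 pairs allow). The latter equals the difference without homozygous replicate 4, which has no wild type partner.

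Per dorsal marker, the summed Taar counts were 66.4, 82.9 and 116 per 1000 in wild type, 69.3, 79.1, 78.6 and 41.6 in heterozygous and 1.55, 2.79, 2.09 and 3.08 in homozygous replicates. The sum includes Taar6, Taar7a and Taar7b, which the paper places more ventrally, so it is not a purely dorsal signal. Of the heterozygous libraries 3 fell within the wild type range and replicate 4 fell below it. The heterozygous geometric mean, 65.1 per 1000, was 0.755 times that of wild type, 86.2 per 1000, with a log2 difference of -0.41 (exact permutation p = 0.286), -0.38 within set 1 and -0.65 within set 2. It was -0.19 without either wild type replicate 3 or heterozygous replicate 4, and -0.59 without wild type replicate 1. Homozygous values rest on 1 to 3 counts per library, which in a deletion of the whole cluster is at or under the level that a count of 0 allows, and no fold is given.

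Relative to mature OSN genes the mean levels of the zonal markers in homozygous libraries came closer to wild type, though for Ncam2 not within the library sets. At an unadjusted p under 0.05 for homozygous against wild type, edgeR named 0 of 9 mature OSN markers, beside 3.02% of all genes. All 9, among them Omp, had lower point estimates in homozygous than in wild type libraries (median log2 fold change -0.32, against 0.015 for all tested genes). Their sum showed this order in set 1, with 2310 and 1949 CPM in wild type against 1604 and 1280 CPM in homozygous libraries, and the opposite one in set 2, with 1295 CPM in wild type replicate 3 against 1569 and 1564 CPM in homozygous libraries. Per 1000 counts of the summed mature OSN list, the homozygous log2 difference from wild type was -0.018 for Nqo1, -0.020 for Acsm4 and -0.037 for Ncam2, and the heterozygous one was 0.095, -0.15 and -0.16. For the sorting molecules it was 0.32 for Kirrel2, 0.23 for Kirrel3 and 0.67 for Pcdh10, and heterozygous Pcdh10 differed from wild type by 0.77. The 18 exact permutation tests of such ratios gave no p below 0.114 and adjusted p of 0.617 or more.

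Kirrel3 followed Omp, the marker protein of mature OSNs, from library to library. Pearson's r of their log2 CPM was 0.850 (permutation p = 8.7e-04, adjusted over 6 relations 0.00522) and Spearman's rho 0.864 (permutation p = 0.00132, adjusted 0.00792) over 11 libraries. It was 0.811 without the libraries with the lowest Kirrel3 levels, wild type replicate 3 and heterozygous replicate 4, and 0.859 within the 6 libraries of set 1 (exact permutation p = 0.025). For set 2, with 5 libraries, no correlation is given, here and below, since 6 libraries were the least for which one was reported. Kirrel2 and Omp gave r = 0.309 (permutation p = 0.359) and rho = 0.255, and r was 0.118 without heterozygous replicates 3 and 4. Whether the 2 correlations differ was not tested.

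**Figure D5:**
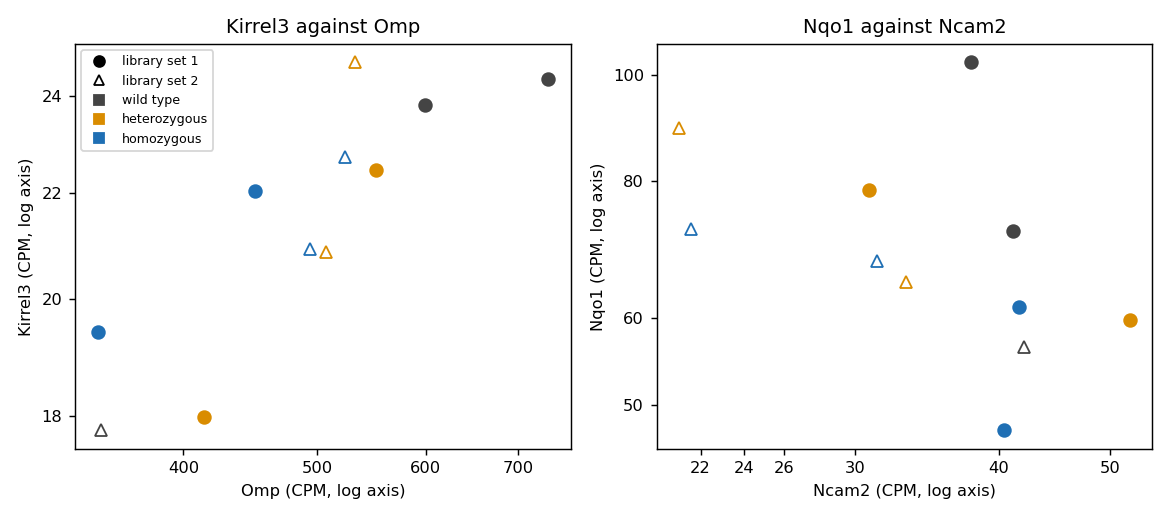
Kirrel3 against Omp (left) and Nqo1 against Ncam2 (right), each point a library, in CPM on log axes, with colours for genotype, filled circles for set 1 and open triangles for set 2. On the left the points rise together (r = 0.850 over all libraries), and on the right they fall, apart from wild type replicate 1 at the top.

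Among the zonal markers, libraries with more Nqo1 tended to have less Ncam2. Pearson's r was -0.488 (permutation p = 0.127, adjusted 0.254) and Spearman's rho -0.691 (permutation p = 0.0225, adjusted 0.0674), so neither passed the correction. Without wild type replicate 1 and homozygous replicate 2 r was -0.775, and within set 1 it was -0.454 (exact permutation p = 0.342). The dorsal markers themselves gave r = 0.495 (permutation p = 0.118) and rho = 0.209. This value rested on the same 2 libraries, the highest and the lowest for both genes, without which r was -0.544. Within set 1 r was 0.725 (exact permutation p = 0.111), whereas in set 2 the library with the most Nqo1, heterozygous replicate 1, had the least Acsm4. Acsm4 and Ncam2 gave r = -0.047 (permutation p = 0.889).

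For each of the 6 genes, the tested genes with the most similar pattern over the 11 libraries (Pearson's r of log2 CPM) are given as a description, being the highest among 16574 genes. For Pcdh10 they were Nptx2 (a secreted synaptic pentraxin, r = 0.959), Cnnm1 (0.947) and Glis3 (0.942). For Kirrel2 they were Sertad2 (0.932), the clustered protocadherin Pcdha12 (0.922) and the cadherin Cdh18 (0.902), and for Kirrel3 they were Pacsin1 (0.938), Mpp2 (0.931) and Cmip (0.915). The dorsal markers had different neighbours, with the deacetylase Hdac11 (0.927), Fetub (0.920) and Lrriq4 (0.913) for Nqo1 and the xenobiotic-metabolising cytochrome P450 Cyp1a1 (0.960) and Osbpl1a (0.876) for Acsm4. For Ncam2 they were Trip4 (0.970), the ETS factor Gabpa (0.967) and Socs6 (0.962). With values centred on the library set the correlations of the genes named here were between 0.868 and 0.964.

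Few other genes of the same pathways passed an unadjusted p of 0.05 in edgeR. Of all genes, 3.02% (homozygous) and 2.24% (heterozygous) did so in the comparisons with wild type, and 0.561% between the mutant genotypes. At such shares a count of 0 in a list of 3 to 9 genes cannot be told apart from the background of all genes. Of 9 other activity-linked axon molecules (Cntn4, Efna5, Epha5, Sema7a, Plxnc1, Pcdh7, Pcdh8, Pcdh17 and Pcdh19), 0 passed an unadjusted p of 0.05 in any comparison (edgeR), with log2 fold changes for homozygous against wild type from -0.33 (Cntn4) to 0.29 (Pcdh8) and a list median of -0.16. Pcdh8 was their highest value in all 3 comparisons. The count was also 0 for 5 tested relatives and partners of Kirrel (-0.29 to 0.13 for homozygous against wild type), for 3 genes of the Ncam family and its sialyltransferases, for 6 genes known for graded dorsal to ventral expression, such as Robo2 and Nrp2 (-0.28 to 0.16), and for 8 genes of the Nrf2 pathway that regulates Nqo1 (-0.20 to 0.12).

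The exceptions were Sema3a, 1 of 3 genes on its list, and Acsm3, 1 of 4 tested quinone and acyl-CoA enzymes related to the dorsal markers, each at an unadjusted p under 0.05 in both comparisons with wild type, as were 3.02% (homozygous) and 2.24% (heterozygous) of all genes. Sema3a, a secreted axon repellent of the anterior to posterior axis, was at 57.0, 70.7 and 71.4 CPM in wild type, 35.3, 53.9, 52.0 and 52.3 CPM in heterozygous and 48.5, 41.0, 52.7 and 37.4 CPM in homozygous replicates. All 8 mutant libraries lay below the 3 wild type libraries, and groups did not overlap for 4.99% of all genes in the homozygous and 2.51% in the heterozygous comparison with wild type. Its fitted log2 fold change was -0.56 for homozygous (SE 0.18, unadjusted p = 0.00846, adjusted 0.996 in edgeR) and -0.46 for heterozygous libraries (SE 0.18, unadjusted p = 0.0251, adjusted 0.99997 in edgeR), against the same wild type libraries. Nrp1 and Plxna1, parts of its receptor, were on the same list and did not pass an unadjusted p of 0.05. Acsm3, a relative of Acsm4, was at 13.4, 7.14 and 12.2 CPM in wild type, 3.33, 7.14, 5.59 and 8.24 CPM in heterozygous and 4.46, 3.27, 8.58 and 6.97 CPM in homozygous replicates. Its log2 fold changes were -0.90 (SE 0.37, unadjusted p = 0.0340) and -0.85 (SE 0.37, unadjusted p = 0.0427) with adjusted p of 0.996 and 0.99997 (edgeR), and its groups overlapped.

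Of the marker lists for other cells, skeletal muscle genes had higher values at an unadjusted p under 0.05 in 4 of 7 (homozygous) and 7 of 7 (heterozygous) cases against wild type, and 0 of 7 passed after adjustment (edgeR), beside 3.02% and 2.24% of all genes at that unadjusted threshold in either direction. For projection neurons of the olfactory bulb, 1 of 5 tested genes, Slc17a7, had an unadjusted p under 0.05 for homozygous against wild type (log2 fold change 1.45, unadjusted p = 0.0359, adjusted 0.996 in edgeR), where homozygous replicate 1 had 7.91 CPM and the others 1.61 to 2.32 CPM. Their summed level was 110 to 177 CPM in all libraries, with 177 CPM in homozygous replicate 1. That library also had the highest Reln (44.0 CPM), Eomes (6.56 CPM), Tbr1 (4.29 CPM) and Tbx21 (12 counts) of the series. Cdhr1, which made up most of the sum, was not highest there. The same library had the highest Pcdh10 level of the homozygous group (29.4 CPM). A part of bulb RNA in that level was not tested. Summed levels overlapped between genotypes for immature OSN, sustentacular, vomeronasal, ensheathing glia, cartilage and bone and erythrocyte lists, and 0 of their tested genes passed an unadjusted p of 0.05 in any comparison. The 5 cartilage and bone genes were abundant, with a sum of 3991 to 11157 CPM. Trpc2 and Vmn1r1 of the vomeronasal list and 4 of 5 erythrocyte genes, all globins, were listed at 0 counts in every library. Other genes of both lists were detected, such as Vmn2r1 (1 to 7 counts per library) and Alas2 (101 to 217 counts). The zeros therefore do not show that vomeronasal or blood RNA was absent.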

How the data were processed

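RNA-seq libraries of whole MOE (3 wild type, 4 heterozygous, 4 homozygous) were prepared by the authors with a directional polyA kit. The authors trimmed reads (Trimmomatic 0.36), aligned them to mm10 (HISAT2 2.1.0) and deposited raw counts per gene (featureCounts, Subread 1.6.2); annotation, strand setting and handling of multiply aligned reads are not given in the sources used here. They also deposited a normalised signal, the count divided by 1 size factor per library (DESeq2 1.20.0), used here only to select genes in 1 alternative.

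Counts were fitted with edgeR 4.0.16 in R 4.3.3 (TMM scaling, filterByExpr by genotype, quasi-likelihood fit of 3 genotypes over 11 libraries) and p-values adjusted over 16574 genes by Benjamini-Hochberg, with a threshold of 0.05. The script was tested on simulated counts. DESeq2 1.42.0 was an alternative. Ratios used counts plus 0.5 and two-sided exact permutation tests (SciPy 1.17.1), whose smallest p is 0.0571 for 3 against 4 and 0.0286 for 4 against 4 libraries. Correlations used log2 CPM with a prior count of 2 and 100000 permutations. Library sets follow the sign of the first principal component. Same-numbered homozygous and wild type libraries deviated together (r = 0.326, 0.415 and 0.396), and each such pair also shared a library set; the labels do not say that a number marks a litter or day. For the other comparisons r was -0.188 or lower. Locations and lengths are from GENCODE M21, promoter windows from RefSeq (5 of 6 genes matched). All 6 genes and their 3 most similar genes are named, apart from 1 that is not reported here, and of each list the genes past an unadjusted p of 0.05 or its highest and lowest. The 6 genes and the lists were chosen with earlier results of these data known. Depth was 9239866 to 14632525 counts; counting error is the only error that counts of 1 library give.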

Additional observations from a re-analysis of the deposited data

How the results depend on the processing

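None of the 6 genes passed an adjusted p of 0.05 in any alternative (scaling, filter, DESeq2, replicate block, library set as covariate, genes of the normalised table, only the 2 genotypes, each library left out). The number at an unadjusted p under 0.05 changed. For homozygous against wild type it was 0, and 0 to 1 with a library left out. It was 2 (Pcdh10 and Acsm4) with the replicate block and only the 2 genotypes, an alternative chosen after seeing the data. In that fit 1020 of 16163 genes passed that threshold. Without the block they were 483 of 16163 with only the 2 genotypes and 500 of 16574 with all 3 genotypes. For heterozygous against wild type the number among the 6 genes was 1, but 0 with only the 2 genotypes and 0 to 1 with a library left out. For homozygous against heterozygous it was 0, and 0 to 1 with a library left out. The replicate block of all 3 genotypes changed none of these counts.

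Values near 0 changed sign. The dorsal to ventral difference of homozygous from wild type, 0.018, was -0.28 with the replicate block (pairs of the same number), a value that equals the one without homozygous replicate 4, and -0.059 centred on the library set. With a library left out it ran from -0.28 to 0.28, that of heterozygous from wild type from -0.11 to 0.40, and that of homozygous from heterozygous from -0.41 to 0.13. With the replicate block and only the 2 genotypes, Kirrel2 and Kirrel3 in heterozygous against wild type were 0.026 and 0.052, and Ncam2 in homozygous against heterozygous was 7.6e-04. There, Acsm4 was -0.0058 with the replicate block of 3 genotypes. With a library left out, the log2 fold change ran from -0.012 to 0.14 (Kirrel2) and -0.18 to 0.034 (Kirrel3) for homozygous against wild type. For heterozygous against wild type it ran from -0.38 to 0.082 (Kirrel2), -0.16 to 0.051 (Kirrel3) and -0.25 to 0.19 (Nqo1), and for homozygous against heterozygous from -0.048 to 0.44 (Kirrel2), -0.12 to 0.058 (Kirrel3), -0.096 to 0.17 (Acsm4) and -0.20 to 0.25 (Ncam2). The cause was not tested. The Kirrel2 to Kirrel3 and Taar differences kept their sign in the alternatives run over both library sets together, but within single sets the former changed sign in both comparisons with wild type. With 3 or 4 libraries a group, the confidence intervals allow changes of up to 2.83-fold (Pcdh10, heterozygous over wild type).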
